A study of Mus musculus with 36 samples.

Results

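Myotubes of C2C12, an established line of mouse myoblasts that fuse into contractile fibers in low serum, were compared 30 min after electrical pulse stimulation (EPS) with unstimulated controls harvested at the same time. The comparison comprised the 3 EPS and 3 control samples that the labels place at 30 min, 6 of the 36 samples of the time course, in which each of 6 harvest times from 0 to 240 min has 3 samples of each kind. EPS makes cultured myotubes contract, and the study used it to ask whether contraction alters promoter methylation of genes that respond to exercise. Both groups are cultures of this single cell line, and the labeled difference between them is the pulses, which were applied for 30 min before the harvest clock started. A figure legend of the study gives its methylation data as 3 independent experiments, and the labels do not say whether an EPS and a control culture came from the same one. DNA of a whole culture was measured, so unfused myoblasts are averaged with myotubes, and because only 3 genes were sequenced, no muscle marker was available to check the state of differentiation.

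DNA methylation is the addition of a methyl group to cytosine, in mammals mostly where a cytosine is followed by guanine (CpG), and dense promoter methylation usually accompanies a silent gene. TET enzymes oxidize methylcytosine to hydroxymethylcytosine, and bisulfite sequencing reads both forms as methylated, so a shift between them is invisible to it. Nr4a3 encodes an orphan nuclear receptor that is an early response gene in contracting muscle, Ccnd1 encodes cyclin D1, which drives cells into the cell cycle and falls when myoblasts leave it, and Ppard encodes PPARδ, a lipid-sensing nuclear receptor that promotes oxidative metabolism in muscle.

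Listed cytosines were grouped into blocks, a block being a run of sites of 1 gene with no gap over 200 bp between neighbors. This gave 6 blocks, a distal and a proximal one upstream of Nr4a3, a near and a far one upstream of Ccnd1, and a promoter and an intron block of Ppard. Of 171 listed cytosines, 117 had a value in all 36 samples. These were 87 CpG sites, 28 sites in CHG context, and 2 in CHH context, where H is any base but guanine. Methylation was given in percent without read counts, so sequencing depth is unknown for every value. Neighboring sites of the 5 blocks with complete values mostly had close values, with a median absolute difference of 0.0483 percentage points (672 pairs within the 6 samples at 30 min, sites outside the amplicons included), so a count of sites is not a count of independent observations. Larger steps occurred, such as from 3.30% to 75.0% between neighboring distal Nr4a3 sites in control replicate 2.

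The sequences of 3 stretches are shown because, among tested blocks, the ratios furthest from 1 and the highest single-site values at 30 min were found there. They were read from the GRCm38 (mm10) reference on the plus strand, 5′ to 3′, with each CpG in capitals. The near Ccnd1 amplicon (chr7:144940233-144940493, 261 bp with 12 CpG sites, 54.0% GC) lies upstream of the gene, which is read from the minus strand. The Ppard promoter amplicon (chr17:28232426-28232626, 201 bp with 11 CpG sites, 56.7% GC) ends 128 bp before the transcription start site (TSS). The third stretch, the edge of the distal Nr4a3 block (chr4:48043026-48043105, 80 bp with 15 CpG sites, 81.2% GC), starts directly after the last base of the distal Nr4a3 amplicon.
Ccnd1 near amplicon: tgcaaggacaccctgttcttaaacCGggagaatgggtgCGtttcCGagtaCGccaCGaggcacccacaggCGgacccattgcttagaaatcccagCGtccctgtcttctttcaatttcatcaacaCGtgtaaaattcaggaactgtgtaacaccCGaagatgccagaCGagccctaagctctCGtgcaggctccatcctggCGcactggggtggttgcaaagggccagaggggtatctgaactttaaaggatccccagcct
Ppard promoter amplicon: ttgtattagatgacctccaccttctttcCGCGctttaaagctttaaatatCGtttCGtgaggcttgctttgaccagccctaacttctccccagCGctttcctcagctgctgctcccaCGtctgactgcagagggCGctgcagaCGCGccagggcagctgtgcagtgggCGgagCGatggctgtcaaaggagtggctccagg
Nr4a3 edge: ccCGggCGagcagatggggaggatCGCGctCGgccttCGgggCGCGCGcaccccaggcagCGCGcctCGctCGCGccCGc

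By mean percent, EPS and control samples at 30 min overlapped in each of the 5 tested blocks, and no block passed its test. The Ppard promoter groups did not overlap on the log2 odds scale or with the median over sites (exact permutation p = 0.1 for each). Nor did the near Ccnd1 groups with the median (exact permutation p = 0.1). The Ppard promoter block had the lowest mean ratio, with EPS samples at 0.547 times the controls, and the near Ccnd1 block the highest, at 1.41 times. The far Ccnd1 and Ppard intron blocks had ratios of 1.01 and 1.07, and in the distal Nr4a3 block the samples within each group differed far more than the groups did. A comparison of 3 against 3 samples cannot give a two-sided exact permutation p below 0.1, so none of the 5 tested blocks could have passed 0.05 by this test. Across single sites, limma called 0 of 117 after Benjamini-Hochberg adjustment (0.00%), and 1 site (0.855%) had an unadjusted p under 0.05.

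Control replicate 2 and EPS replicate 3 stood apart from the other samples at 30 min in parts of Nr4a3. Control replicate 2 also differed from the other controls in the proximal part of the Ppard promoter, and control replicate 3 in its distal part. What leaving out these libraries changed is given at each block. No nonzero site value was identical in any pair of the 6 samples.

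**Figure D1:**
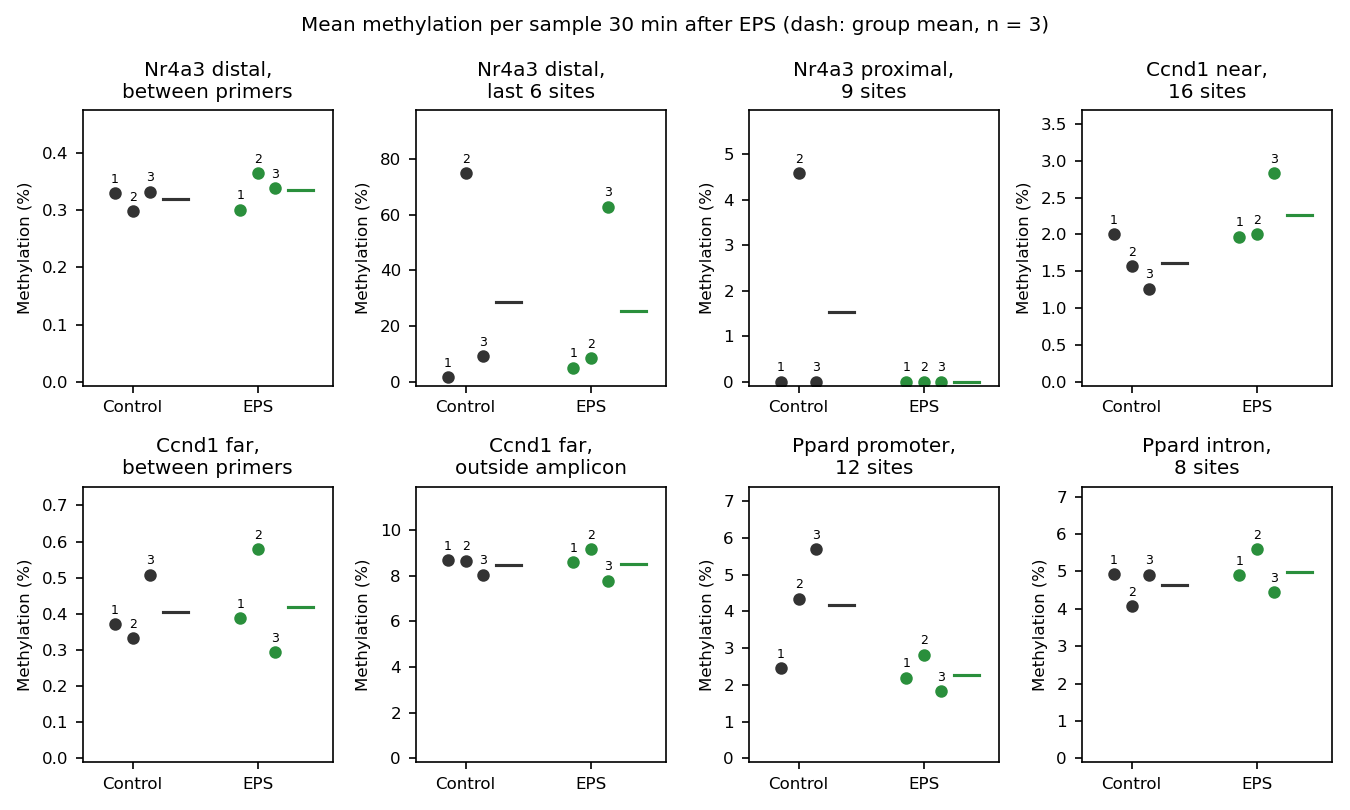
Mean methylation in percent (vertical axis, starting at 0) of each sample at 30 min, numbered by replicate, for control (black) and EPS (green) cells, with a dash at the group mean (n = 3). The groups overlap in the panels with sites between primers, while control replicate 2 (75.0%) and EPS replicate 3 (62.8%) stand apart at the Nr4a3 sites past the amplicon end.

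In the near Ccnd1 block (16 sites, chr7:144940258-144940435, in no annotated gene, on an amplicon 364 to 624 bp upstream of the TSS), mean methylation was 2.00%, 1.57%, and 1.27% in control replicates 1, 2, and 3, and 1.97%, 2.00%, and 2.84% in EPS replicates 1, 2, and 3. EPS replicate 3 was the highest and control replicate 3 the lowest, and the groups overlapped because control replicate 1 lay marginally above EPS replicates 1 and 2. Means were 1.61% ± 0.372 in control and 2.27% ± 0.491 in EPS cells (SD, n = 3), and EPS exceeded control by 0.656 percentage points (SE 0.356, exact permutation p = 0.3, adjusted p = 0.75 over 5 blocks). Leaving out EPS replicate 3 lowered this to 0.373 percentage points, and leaving out control replicate 2 or 3 gave 0.634 and 0.483. Against all 18 controls of the time course the EPS samples were 0.288 percentage points higher (exact permutation p = 0.538). With the median over sites in place of the mean, EPS exceeded control by 0.872 percentage points without overlap (exact permutation p = 0.1, the smallest possible).

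The profile along this amplicon had the shape of a valley in the 6 samples, falling from the end nearer the gene to the middle and rising again toward the other end. Methylation was higher after EPS at 10 of the 16 sites, against 60.7% of the 117 sites tested in all 5 blocks. At the 9 sites nearest the gene, from 144940258 to 144940305, every EPS sample lay above every control. These 9 are the only such sites among the 117 (7.69% in this direction, and 9.40% without overlap in either direction), and they form 1 unbroken run of smoothly varying values at the start of the sequence shown.

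The run was picked out after its values were seen, so it carries no test. Its mean was 1.75%, 1.66%, and 1.24% in the controls and 2.24%, 2.00%, and 4.29% in the EPS samples. EPS replicate 3 was raised well above the other EPS replicates, which exceeded the highest control by less than 1 percentage point. At the other end, over the 6 sites from 490 bp onward, also picked after seeing the values, the mean was lower after EPS. Controls were at 2.53%, 1.58%, and 1.39% and EPS samples at 1.72%, 2.12%, and 0.796%. The groups overlapped there, with EPS replicates 1 and 2 above control replicates 2 and 3. EPS replicate 3, the highest sample at the first end, was here the lowest.

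The first site of the block, at chr7 position 144940258, read 2.08%, 2.26%, and 1.52% in the controls and 2.90%, 2.37%, and 5.32% in the EPS samples. The cytosine directly beside it is in CHG context and read 5.29% in EPS replicate 3, so the CHG cytosine had nearly the value of the CpG next to it. Another CHG cytosine, at position 144940305, gave the block's smallest limma p, with controls at 1.44%, 1.14%, and 0.968% and EPS samples at 1.64%, 1.63%, and 3.27%. Its log2 difference in methylation odds was 0.84 (SE 0.73, limma adjusted p = 0.963), or 0.50 when EPS replicate 3 was left out. The last site, at position 144940435, was the highest of the block over all 36 samples (3.74%), and the site at 490 bp was the lowest (0.974%).

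**Figure D2:**
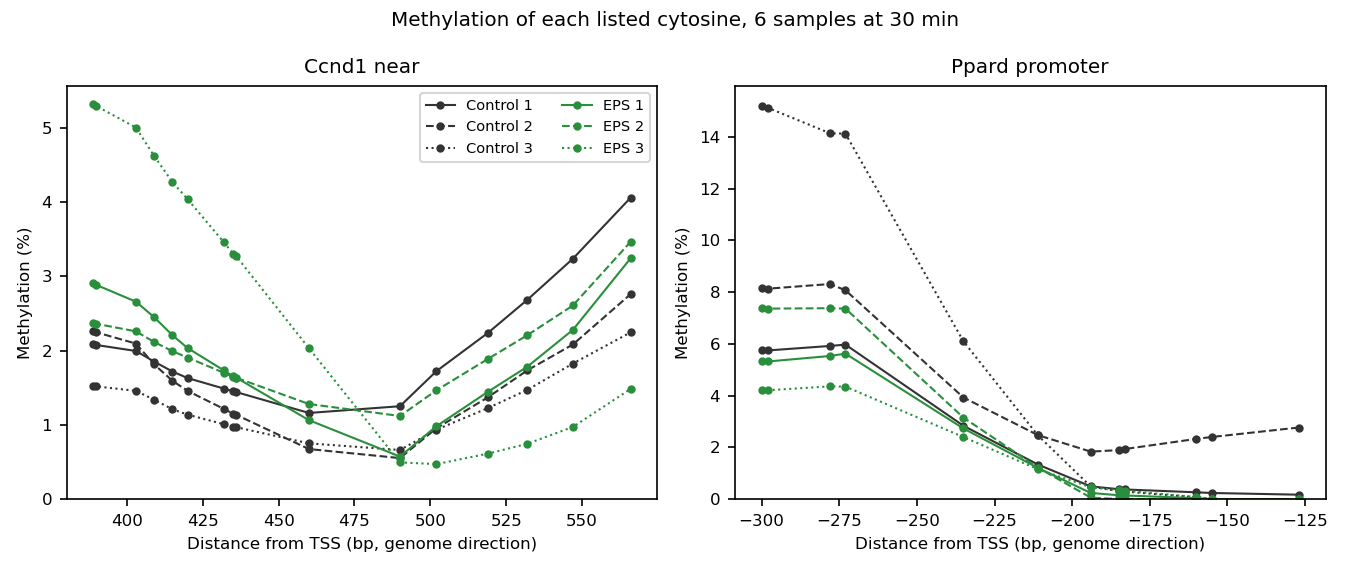
Methylation in percent (vertical axis) of each listed cytosine against its distance from the TSS in bp in genome direction (horizontal axis) in the near Ccnd1 and Ppard promoter blocks, for control (black) and EPS (green) replicates 1 (solid), 2 (dashed), and 3 (dotted) at 30 min. EPS replicate 3 runs from 5.32% at the first to 1.48% at the last site in Ccnd1, and control replicate 3 starts at 15.2% at the first site in Ppard.

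The Ppard promoter block (12 CpG sites from −300 to −127 bp, chr17:28232454-28232627, upstream of the annotated gene) had mean methylation of 2.46%, 4.35%, and 5.69% in the controls and 2.19%, 2.83%, and 1.82% in the EPS samples. Control replicates 2 and 3 lay above every EPS sample, but control replicate 1 lay below EPS replicate 2, so the groups overlapped by this mean. The means were 4.17% ± 1.63 in control and 2.28% ± 0.508 in EPS cells, that is, −1.89 percentage points (SE 0.983, n = 3, exact permutation p = 0.2, adjusted p = 0.75). Leaving out control replicate 3 gave −1.13 percentage points, leaving out control replicate 2 gave −1.79, and leaving out EPS replicate 3 gave −1.66. With the median over sites the difference was −0.947 percentage points, and on the log2 odds scale it was −1.30. In both the groups did not overlap (exact permutation p = 0.1 for each, the smallest possible).

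Mean methylation was lower after EPS at 12 of the 12 sites, whereas 60.7% of all 117 sites had a higher mean, but only at 2 of them, −211 and −194 bp, did every EPS sample lie below every control (1.71% of the 117 sites in this direction). At −194 bp, the site with the smallest limma p of all 117, the controls read 0.490%, 1.83%, and 0.486% and the EPS samples 0.237%, 0.0558%, and 0.458%. The log2 difference in odds was −1.79 (SE 0.86, limma adjusted p = 0.963 over 117 sites), or −1.14 when control replicate 2 was left out. It is the 1 site whose unadjusted p was under 0.05. The site at −211 bp, singled out for its lack of overlap, read 1.33%, 2.47%, and 2.46% in the controls and a narrow 1.20%, 1.21%, and 1.15% in the EPS samples (log2 difference −0.77, SE 0.38, limma adjusted p = 0.963).

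Different controls were high at the ends of this block. Over the 4 distal sites from −300 to −273 bp, the controls averaged 5.85%, 8.17%, and 14.6%, and the EPS samples 5.45%, 7.37%, and 4.28%. Control replicate 3 was the high sample here, while control replicate 1 lay within the EPS range and control replicate 2 just above it. The highest site over all samples, at −273 bp, averaged 5.96%.

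Over the 6 proximal sites from −194 to −127 bp, the controls averaged 0.319%, 2.19%, and 0.192%, and the EPS samples 0.0935%, 0.00930%, and 0.200%. There control replicate 2 alone was high. At −155 bp, the site of lowest mean in the block (0.328% over 36 samples), it read 2.40% while control replicate 1 read 0.236% and the other 4 samples were listed at 0. These stretches were drawn after seeing the values and carry no test. The table also lists 31 Ppard cytosines from −1 to 252 bp, of which 11 had no value in any sample at 30 min and 20 had a value in 1 sample.

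By mean percent, 2 of the 3 Ppard promoter controls at 30 min lay outside the range of the other harvest times, and the EPS samples did not. The median and the log2 odds scale were not compared in this way. The 15 controls of the other harvest times ranged from 0.975% to 3.66% (median 2.21%), and control replicates 2 and 3 at 30 min lay above this range. The 15 EPS samples of the other times ranged from 1.24% to 3.39% (median 2.64%), and the 3 EPS samples at 30 min lay within it. With all 18 controls as the reference, the EPS samples differed by −0.26 percentage points (exact permutation p = 0.694).

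The distal Nr4a3 block (38 sites from −2326 to −2050 bp, chr4:48042827-48043103, in no annotated gene) had mean methylation of 0.561%, 12.3%, and 1.83% in the controls and 1.08%, 1.70%, and 10.4% in the EPS samples. Control replicate 2 and EPS replicate 3 were far above the other 4 samples, and the groups overlapped. The means were 4.88% ± 6.42 and 4.40% ± 5.22, or −0.482 percentage points (SE 4.78, n = 3, exact permutation p = 0.8, adjusted p = 0.8). The sign turned when control replicate 2 (3.20), EPS replicate 1 (1.18), or EPS replicate 2 (0.866 percentage points) was left out, while it stayed negative when control replicate 3 (−2.01) or EPS replicate 3 (−3.49 percentage points) was. It also turned against all 18 controls of the time course (2.32 percentage points, exact permutation p = 0.195).

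The large values came from the edge sequence shown above, past the last base of the amplicon at −2128 bp. At its last 6 sites, from −2067 to −2050 bp, the controls averaged 1.62%, 75.0%, and 9.22%, and the EPS samples 5.03%, 8.53%, and 62.8%. Control replicate 2 was listed at exactly 75% at each of these 6 sites. How many reads lie behind these values past the amplicon end is unknown, so they may rest on few. The site at −2067 bp, the highest of the block over all 36 samples (12.3%), read 2.13%, 75.0%, and 11.5% in the controls and 6.45%, 10.5%, and 64.7% in the EPS samples. A spread this wide occurred in both groups.

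Between the primers, where 22 sites lie, methylation was uniformly low. The controls averaged 0.329%, 0.298%, and 0.332%, and the EPS samples 0.301%, 0.365%, and 0.338%. The 6 samples overlapped within a range of less than 0.1 percentage point, and the group difference was 0.0150 percentage points (SE 0.0216, exact permutation p = 0.4). The stretch the study singles out runs from chr4 position 48042952, inside the amplicon, to 48043072, outside it. At the first of these positions, a CHG cytosine, the controls read 0.314%, 0.274%, and 0.310% and the EPS samples 0.283%, 0.354%, and 0.325%. At the second, controls read 0.784%, 3.30%, and 1.75% and EPS samples 0.873%, 1.21%, and 3.99%. Control replicate 2 and EPS replicate 3, the extremes further out, were already the highest of their groups there.

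The site of smallest limma p in this block, −2180 bp, read 0.313%, 0.264%, and 0.311% in the controls and 0.276%, 0.355%, and 0.357% in the EPS samples (log2 difference 0.15, SE 0.13, limma adjusted p = 0.963). With 1 replicate left out this log2 difference ran from 0.07 (control replicate 2) to 0.27 (EPS replicate 1), and was 0.09 and 0.08 without EPS replicates 2 and 3. The lowest site over all 36 samples was −2195 bp, at 0.2998%. Mean methylation was higher after EPS at 24 of the 38 sites, close to the 60.7% of all 117 sites, and at 0 of them did the groups separate.

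**Figure D3:**
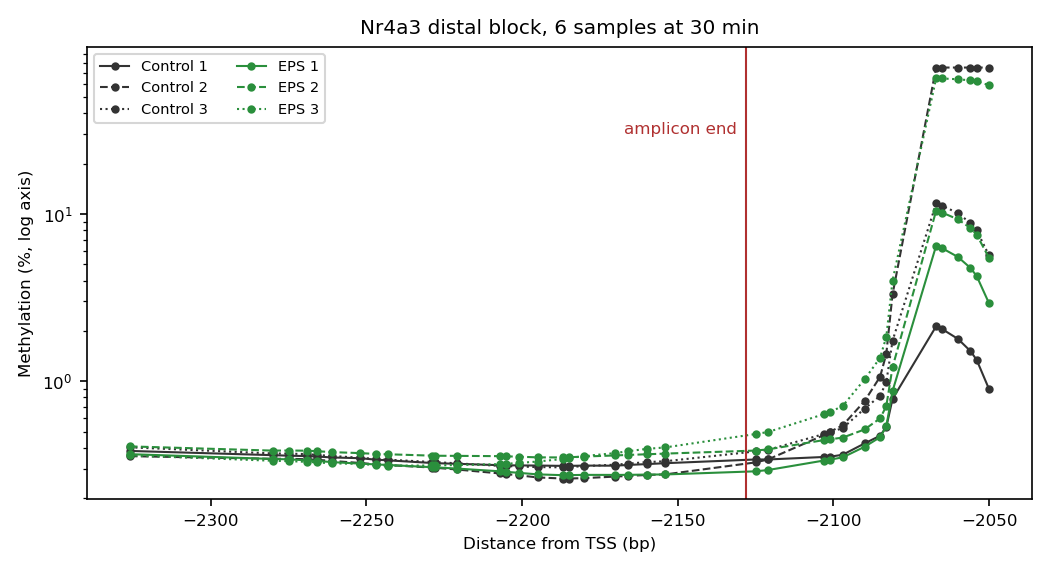
Methylation in percent on a log axis (vertical) of the 38 distal Nr4a3 cytosines against distance from the TSS in bp (horizontal) in the control (black) and EPS (green) samples at 30 min, with the amplicon end marked in red. The 6 samples run together between the primers and spread past the amplicon end, from 2.13% to 75.0% at −2067 bp.

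The proximal Nr4a3 block had 23 listed cytosines, of which 9, from −122 to −45 bp (chr4:48045031-48045108), had a value in all 6 samples at 30 min. As 0 had one in all 36, it entered neither the block tests nor the main limma test. Its 9 sites entered limma in an alternative setting, which used sites with a value in all 6 samples at 30 min. The 9 sites were listed at 0 in 5 of the 6 samples. The exception was control replicate 2, with a mean of 4.59% and a highest listed value of 6.63%, and values above 0 at 18 of its 23 sites. In the whole time course 1 other sample, control replicate 3 at 60 min, had values above 0 in this block. Without control replicate 2 there was no difference to describe here.

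The far Ccnd1 block (43 sites from 1260 to 1643 bp upstream of the TSS, chr7:144941129-144941512, in no annotated gene) had mean methylation of 3.19%, 3.18%, and 3.07% in the controls and 3.20%, 3.49%, and 2.83% in the EPS samples. The EPS samples included both the highest and the lowest of the 6 and enclosed the controls. The means were 3.15% ± 0.0665 and 3.17% ± 0.332, 0.0263 percentage points apart (SE 0.195, n = 3, exact permutation p = 0.8, adjusted p = 0.8). Omission of control replicate 3 or EPS replicate 2 turned the sign (−0.0118 and −0.133 percentage points), while omission of EPS replicate 3 gave 0.198 and omission of control replicate 2 gave 0.0407. Against all 18 controls the sign turned as well (−0.119 percentage points, exact permutation p = 0.421).

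Most of this block's methylation also lay outside its amplicon. Of its 43 sites, 14 lie outside, 23 between the primers, and 6 within primer sequences. The 14 sites outside averaged 8.70%, 8.67%, and 8.06% in the controls and 8.61%, 9.16%, and 7.79% in the EPS samples, while the 23 sites between the primers averaged 0.371%, 0.332%, and 0.508% in the controls and 0.388%, 0.578%, and 0.294% in the EPS samples. In both sets the groups overlapped, and inside the amplicon they lay 0.0162 percentage points apart (SE 0.0992, exact permutation p = 0.9). The sample means over these outside sites ranged from 7.79% to 9.16%, whereas those over the 16 distal Nr4a3 sites outside their amplicon ranged from 0.880% to 28.7%.

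The highest site was the outermost, at 1260 bp (14.4% over 36 samples), with controls at 14.3%, 13.9%, and 12.5% and EPS samples at 13.7%, 14.8%, and 12.9%. The lowest, at 1462 bp, averaged 0.358%. The site of smallest limma p was a CHG cytosine at 1524 bp. It read 0.382%, 0.255%, and 0.758% in the controls and 0.446%, 0.649%, and 0.525% in the EPS samples (log2 difference 0.35, SE 0.34, limma adjusted p = 0.963), and the difference was −0.01 without control replicate 2. Over the last 10 sites, from 1583 to 1643 bp, a run chosen after its values were seen, EPS replicate 2 (0.718%) and EPS replicate 3 (0.0801%) lay on either side of the other 4 samples.

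The Ppard intron block (8 sites, chr17:28233460-28233606, on an amplicon 692 to 891 bp downstream of the TSS) had mean methylation of 4.93%, 4.07%, and 4.92% in the controls and 4.90%, 5.59%, and 4.44% in the EPS samples. EPS replicate 2 was highest, control replicate 2 lowest, and the groups overlapped. The means were 4.64% ± 0.493 and 4.98% ± 0.577, 0.339 percentage points apart (SE 0.438, n = 3, exact permutation p = 0.6, adjusted p = 0.8). This became 0.0331 when EPS replicate 2 and 0.0543 when control replicate 2 was left out. Omission of control replicate 3 gave 0.478 and omission of EPS replicate 3 gave 0.606 percentage points. Against all 18 controls it was 0.103 (exact permutation p = 0.751).

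Methylation rose along the intron block, from 3.43% at its first site, the lowest over 36 samples, to 7.57% at its last, the highest. Both are CHG cytosines, and the first lies within a primer sequence. At the first site controls averaged 3.33% ± 0.849 and EPS samples 3.91% ± 0.123, and at the last site 7.14% ± 0.878 and 6.74% ± 0.696 (SD, n = 3). Both differences were smaller than the control SD. EPS samples had the higher mean at 6 of the 8 sites, against 60.7% of all 117. At 765 bp, the site of smallest limma p here, the controls read 3.34%, 2.91%, and 3.66% and the EPS samples 3.99%, 4.81%, and 3.44%. EPS replicate 3 lay among the controls at this site (log2 difference 0.31, SE 0.19, limma adjusted p = 0.963, or 0.18 when EPS replicate 2 was left out).

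The difference at 30 min was then set against the difference at the harvest times beside it, 0 and 60 min, with treatment labels permuted within each time point (400 arrangements, 10 comparisons). In the near Ccnd1 block the difference was −0.423 percentage points at 0 min and 0.656 at 30 min. The change of 1.08 percentage points had an exact permutation p = 0.05 and an adjusted p = 0.5. In 0 min samples the controls read 2.46%, 1.87%, and 1.48% and the EPS samples 1.46%, 1.51%, and 1.56%, so the groups overlapped at both times. For the Ppard promoter the difference was 0.320 percentage points at 60 min, with controls at 2.28%, 1.24%, and 3.66% and EPS samples at 2.12%, 3.39%, and 2.64%. This is −2.21 percentage points from 60 to 30 min (exact permutation p = 0.135, adjusted p = 0.675), or −1.45 when control replicate 3 at 30 min was left out. The other 8 comparisons had exact permutation p-values from 0.285 to 0.93.

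At single sites, limma called 0 of 117 interactions (0.00%) between 30 and 0 min and 0 (0.00%) between 30 and 60 min, with 0 at an unadjusted p under 0.05 in both. Against 120, 180, and 240 min, it called 0 after adjustment (0.00% each), with 9, 5, and 0 sites at an unadjusted p under 0.05.

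**Figure D4:**
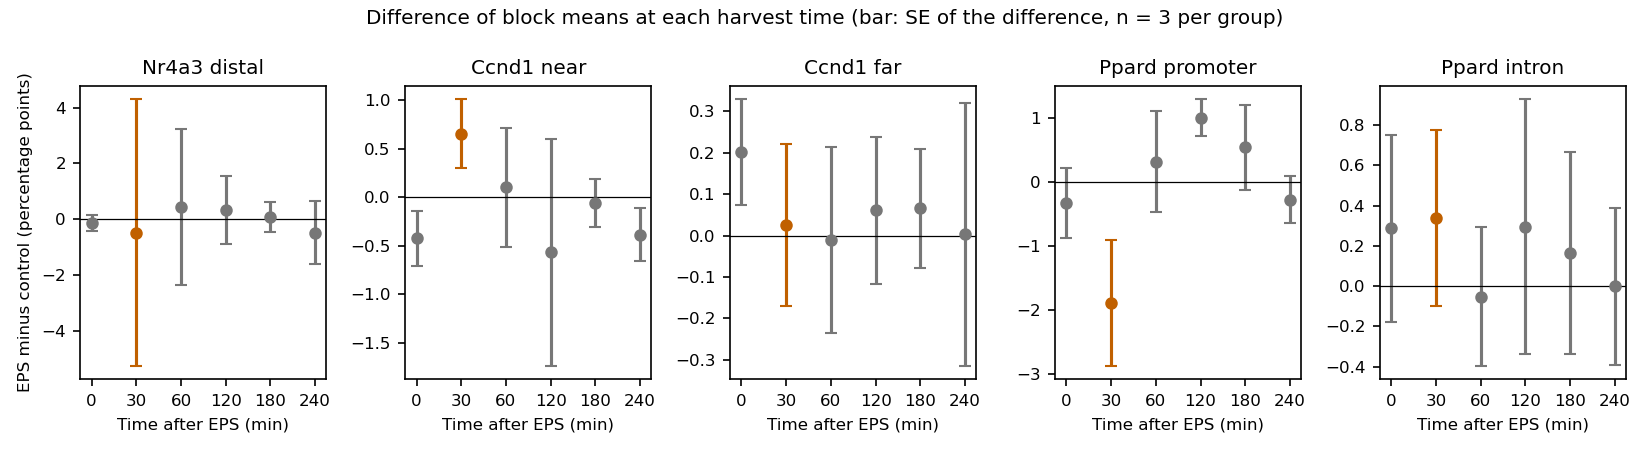
EPS minus control in percentage points of block mean methylation (vertical axis, scaled per panel) against harvest time after EPS in min (horizontal axis, categories), with bars for the SE of the difference (n = 3 per group) and 30 min in orange. The Ppard promoter point at 30 min (−1.89) is the lowest and the near Ccnd1 point (0.656) the highest of its panel.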

How the data were processed

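Methylation of 3 promoters was measured by multiplexed bisulfite amplicon sequencing. The authors trimmed reads with Trim Galore 0.3.7 and Cutadapt 1.4.2, aligned to the mm10 genome using Bismark with Bowtie2, and deposited percent methylation per cytosine and sample with no counts or coverage, so depth is unknown and no coverage minimum or interval could be applied. The article does not state whether values were smoothed. The authors' deposited table of p-values was not used.

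Block means used sites with a value in all 36 samples and were compared by two-sided exact permutation tests, adjusted by Benjamini-Hochberg over 5 blocks. A test of the sixth, proximal Nr4a3, was planned but no site was complete. Single sites were tested with limma (version 3.58.1, R 4.3.3) on log2 odds of methylation, the fraction held 0.001 from 0 and 1, with 12 group means and 24 residual degrees of freedom, and the script was tested on simulated data. Other steps used Python 3.11.15, numpy 2.4.6, and pandas 2.3.3. Primers were matched to the converted reference, and genes come from the GENCODE annotation. Table distances are genome coordinate minus TSS. Values with n = 3 are mean ± SD. A permutation p is the share of label arrangements with a difference at least as large. The main limma p-values use a spread estimated over all 36 samples. Both refer to these cultures only. Named sites are, per block, the site of smallest limma p, the sites of highest and lowest mean, and the ends of stretches the study names. The Ppard site at −211 bp and a CHG cytosine at the start of the near Ccnd1 block were named after their values were seen. Alternatives were other scales, medians, site sets, centering, all 18 controls, a replicate block, other beta limits, and omission of each replicate. The samples, rules, and lists were chosen with earlier results of these data known.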

Additional observations from a re-analysis of the deposited data

Results flagged for a closer look

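After the values had been seen, the difference at 30 min was also compared with that at 120, 180, and 240 min, giving 25 comparisons with those at 0 and 60 min. In the Ppard promoter block the difference between EPS and control cells was −1.89 percentage points at 30 min and 1.01 at 120 min, a change of −2.90 percentage points (exact permutation p = 0.01, adjusted p = 0.25 over 25 comparisons, and exact permutation p = 0.225 with samples centered). At 120 min the controls read 1.36%, 2.09%, and 2.21% and the EPS samples 2.70%, 3.05%, and 2.94%. Every EPS sample lay above every control there, whereas by this mean the groups overlapped at 30 min. In the near Ccnd1 block the difference was 0.656 percentage points at 30 min and −0.385 at 240 min, a change of 1.04 percentage points (exact permutation p = 0.045, adjusted p = 0.417, and exact permutation p = 0.545 with samples centered). Without control replicate 2, control replicate 3, or EPS replicate 3 this change had exact permutation p-values of 0.09, 0.095, and 0.075. With a replicate block the exact permutation test compares 3 pair differences with 3, cannot go below p = 0.1 and so could keep neither, and it gave p = 0.1 for the Ppard promoter and 0.2 for near Ccnd1. Both stand out by the unadjusted p, and neither passed adjustment.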

How the results depend on the processing

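At 30 min, the sign for distal Nr4a3 turned on the log2 odds scale (0.0841), with the median over sites (0.00818), with sites between the primers (0.0150 percentage points), in the named stretch (0.0351), and against all 18 controls (2.32). For far Ccnd1 it turned on the log2 scale (−0.0435) and against all 18 controls (−0.119). The Ppard promoter difference was −1.30 on the log2 odds scale and −0.947 percentage points with the median (exact permutation p = 0.1 for each). For near Ccnd1 the median gave 0.872 percentage points (exact permutation p = 0.1). In these 3 settings the groups did not overlap, and p could not have been smaller. Omission of 1 replicate gave −3.49 to 3.20 for distal Nr4a3, 0.373 to 0.852 for near Ccnd1, −0.133 to 0.198 for far Ccnd1, −2.74 to −1.13 for the Ppard promoter, and 0.0331 to 0.606 for the Ppard intron. At the Ccnd1 site 1524 bp upstream it gave a log2 difference of −0.0121 to 0.779. The causes were not tested. Limma called 0 sites after adjustment in each of the 16 other settings run, with 0 to 10 sites at an unadjusted p under 0.05. The setting with sites complete in the 6 samples at 30 min tested 126, the 9 of proximal Nr4a3 included, and had 10 such sites.

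Against 0 min, distal Nr4a3 turned on the log2 scale (0.111; −3.34 to 3.35 with 1 replicate omitted), far Ccnd1 with samples centered (0.00768), and the Ppard intron between the primers (−0.0440; −0.253 to 0.319). Near Ccnd1 passed 0.05 unadjusted on the log2 scale (0.774, exact permutation p = 0.025) and ranged from 0.796 to 1.28, passing without control replicate 1 (exact permutation p = 0.02). But the same exact test gave p = 0.435 with samples centered, which carries the spread of distal Nr4a3, and 0.11 without control replicate 2 or 3. Against 60 min, distal Nr4a3 turned on the log2 scale (0.372) and between the primers (0.0232; −3.92 to 2.77), and far Ccnd1 likewise (−0.264 and −0.0683; −0.123 to 0.208), and the Ppard promoter p rose to 0.535 on the log2 scale (−0.66, exact permutation test).

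Deviations of same-numbered samples at 30 min correlated at 0.869, −0.651, and −0.425 over sites, and those of other-numbered samples from −0.784 to 0.772. At 120 min same-numbered samples correlated at 0.922, 0.607, and 0.765. Sites are not independent observations, so these values cannot tell whether same-numbered cultures came from the same experiment. With the replicate block, p was 1.0 for distal Nr4a3 (−0.482), 0.5 for near Ccnd1 (0.656), and 0.25 for the Ppard promoter (−1.89) by an exact sign-flip permutation test that cannot go below 0.25, and limma called 0 sites. For changes between time points the block leaves 3 pair differences against 3 and an exact permutation p of at least 0.1, so no such call could be kept. The near Ccnd1 change from 0 min had exact permutation p = 0.2 with the block. For a control at 0 min the labels gave conflicting replicate numbers, and this value rests on the number in its title. The Ppard promoter change from 120 min was −2.90 with the block (exact permutation p = 0.1, the smallest possible) and −2.49 with samples centered (exact permutation p = 0.225). The near Ccnd1 change from 240 min was 1.04 with the block (exact permutation p = 0.2) and 1.03 centered (exact permutation p = 0.545). These comparisons were added after seeing the data, and their centered p-values carry the spread of distal Nr4a3. Without read counts, the depth behind each value is unknown, that of the high distal Nr4a3 values past the amplicon end included.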
